A study of Drosophila melanogaster with 6 samples.

Results

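The genes described here encode antimicrobial peptides, the short and mostly secreted proteins with which insects kill bacteria and fungi. They are Mtk, CecA1, CecB, CecC, AttA, AttD, DptB and Drs, chosen by gene symbol, and each probe set carrying one of these symbols was taken. Of the 8 genes, 5 had a probe set named for them, 1 each, among 18769 probe sets that are not array controls: Mtk (1627613_at), CecB (1626530_at), AttD (1631475_at), DptB (1638235_at) and Drs (1635189_at). All 5 passed the signal filter, as did 8446 probe sets in all. No probe set carried the symbol of CecA1, CecC or AttA here, so these 3 genes have no value below.

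Total RNA was measured on 6 Affymetrix arrays in Drosophila melanogaster S2 cells, an embryo-derived line with haemocyte features, 48 h after transfection. Control cells received empty vector, on 2 arrays. The other cells received pAc-Clk, at 10 ng on 2 arrays and at 30 ng and 100 ng on 1 array each. This plasmid expresses Clk, the clock transcription factor that works as a dimer with Cyc, and its name points to an actin promoter. All groups were thus transfected, no group was given bacteria or another immune stimulus as far as the labels say, and no untransfected group was analysed. The labels do not say whether replicates came from separate cultures. A p-value thus reflects the spread among these arrays alone, which may be technical, and the number of arrays limits the precision. In bulk RNA, fewer cells expressing a gene and less RNA per cell cannot be told apart.

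In flies, antimicrobial peptide genes are switched on by 2 NF-kappaB pathways. The Imd pathway senses bacterial peptidoglycan and acts through Rel, and DptB and the cecropin and attacin genes are mainly its targets. The Toll pathway acts through Dif and dl and drives Drs, while Mtk answers to both. Haemocytes and the fat body are the main sources of these peptides, and S2 cells are a common model for the Imd response.

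Signals are log2 values, on a scale read from their range rather than stated by the labels. Taken at face value, the deposited numbers would make every log2 change 1.44 times as large. As a check of the labels, Clk itself was below the Tag signal described next in both controls (2.50 and 2.84) and above it with 10 ng (3.46 and 3.47), 30 ng (5.07) and 100 ng (4.66). Its direct target tim read 3.27 and 4.03 in controls, 8.56 and 8.18 with 10 ng, 9.85 with 30 ng and 12.35 with 100 ng. Of 15 haemocyte markers, 13 lay above the highest Tag control signal on all 6 arrays, gcm and lz being the exceptions. That signal comes from probe sets with no fly transcript, and it was between 2.95 and 3.56. Of the markers of other cell types with a probe set, 2 of 6 for fat body, 2 of 5 for neuron, 0 of 4 for muscle and 1 of 4 for gut did so, with array medians no higher than 3.27, 4.01, 2.81 and 2.87. The brightest was elav, a neuronal gene, at 7.53 on the 100 ng array. The haemocyte markers themselves split at 100 ng, where 5 of 13 rose and 6 fell, beside 33.6% and 35.2% of all probe sets. The rises ran from 0.64 (eater) to 1.18 (PPO1), and the largest falls were 3.56 for Pxn, 2.58 for Col4a1 and 2.00 for Hml. PPO1 read 3.76 and 3.54 in controls and 3.79 and 3.78 with 10 ng. It reached the filter level of 4 only on the 30 ng (4.29) and 100 ng (4.83) arrays. PPO1 was thus tested only through those arrays, so its call as a rise cannot be taken as evidence. On the 30 and 100 ng arrays, the 5′ probe sets of 3 abundant control transcripts (actin, eIF-4a and GAPDH) read far below the 3′ ones, with a mean 5′ minus 3′ difference of -9.40 and -8.25, against values from -1.25 to -0.64 on the other 4 arrays. The middle probe sets stood -2.78 from the 3′ ones at 30 ng and -6.60 at 100 ng. With 1 array per dose, the amount of plasmid and the low 5′ signal cannot be told apart in any 30 or 100 ng value below.

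The 5 peptide genes were well expressed without any Clk plasmid. Each stood above the highest Tag signal on every array, by at least 5.37 log2 units for CecB and by at least 8.09 for the other 4. Levels of different genes are not compared, because each probe set has its own sensitivity.

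At 10 ng, the dose with replicates, none of the 5 genes passed the test. Mtk, whose product metchnikowin acts on fungi and Gram-positive bacteria, averaged 11.98 ± 0.07 at 10 ng and 11.92 ± 0.04 in controls (SD, n = 2 each). CecB, a cecropin that lyses bacterial membranes, averaged 8.83 ± 0.29 at 10 ng and 8.57 ± 0.34 in controls. AttD, a member of the attacin family directed at Gram-negative bacteria, averaged 11.97 ± 0.19 at 10 ng and 11.82 ± 0.08 in controls. The 10 ng and control arrays of these 3 genes overlapped. Drs, which encodes the antifungal peptide drosomycin, averaged 11.52 ± 0.29 at 10 ng and 11.63 ± 0.18 in controls. DptB, a diptericin directed at Gram-negative bacteria, averaged 13.34 ± 0.22 at 10 ng and 13.07 ± 0.06 in controls.

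The 10 ng log2 changes were 0.07 (SE 0.13) for Mtk, 0.25 (SE 0.21) for CecB, 0.15 (SE 0.14) for AttD, 0.28 (SE 0.14) for DptB and -0.11 (SE 0.17) for Drs. The adjusted p was 1.00 for each (limma, Benjamini-Hochberg over 8446 probe sets), and 0 of 5 had an unadjusted p under 0.05. Over all probe sets 2.06% had an unadjusted p under 0.05, and after adjustment 0.0947% were called higher and 0% lower at this dose. The 95% intervals of the 10 ng to control ratio ran from 0.862 to 1.27 for Mtk, 0.854 to 1.66 for CecB, 0.896 to 1.38 for AttD, 0.970 to 1.51 for DptB and 0.718 to 1.20 for Drs. On this scale a 2-fold rise or fall at 10 ng lay outside the interval of each of the 5 genes. DptB was the 1 gene of the 5 whose 10 ng arrays (13.50 and 13.19) both exceeded both controls (13.11 and 13.02). That pattern was seen in 3.71% of all probe sets, and the opposite one, with both 10 ng arrays lower, in 23.5% of probe sets and 0 of these 5 genes.

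**Figure D1:**
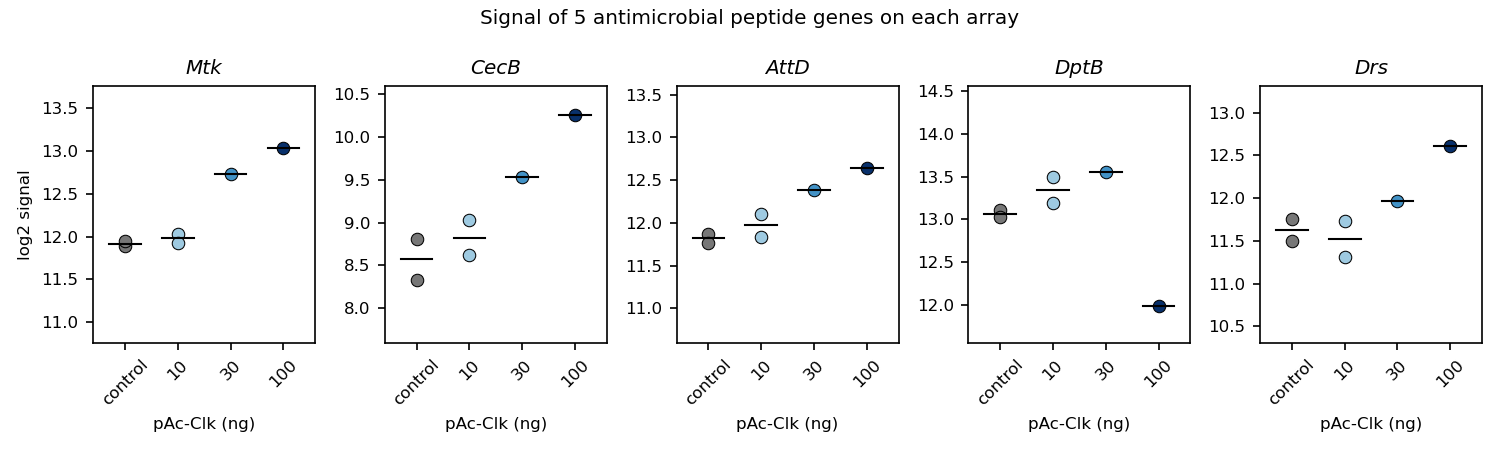
Each panel plots the log2 signal of 1 gene on each of the 6 arrays (points) with the group mean (bars), by amount of pAc-Clk plasmid in ng; every panel spans 3 log2 units. Mtk, CecB, AttD and Drs are highest on the 100 ng array, whereas DptB is lowest there, at 11.98.

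At 30 ng, 3 of the 5 genes rose and 0 fell, where 5.73% of all probe sets were called higher and 11.6% lower. Higher calls were 33% of all calls as deposited, 50.7% after quantile normalization and 47.3% after median centring. Mtk read 12.74 at 30 ng, against 11.89 and 11.95 in controls, and was 1.76-fold higher (log2 change 0.82, SE 0.15, adjusted p = 0.00578). CecB read 9.54, against 8.33 and 8.81 in controls (log2 change 0.97, SE 0.26, adjusted p = 0.0339). AttD read 12.38, against 11.87 and 11.77 in controls (log2 change 0.56, SE 0.17, adjusted p = 0.0491). For all 3 genes the single 30 ng array lay above every control and 10 ng array. DptB read 13.56 at 30 ng, its highest value of the 6 arrays, but the change of 0.49 did not pass (SE 0.17, adjusted p = 0.0801). Drs read 11.97 at 30 ng, against 11.75 and 11.50 in controls, a change of 0.35 that did not pass (SE 0.20, adjusted p = 0.251). The median change was 0.56 for the 5 genes and 0.11 for all probe sets.

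These 30 ng calls treat the single array as varying like the replicated groups, and they were not stable. None of the 3 passed with no filter on dim probe sets (adjusted p = 0.0515 for Mtk, 0.207 for CecB and 0.180 for AttD) or without control replicate 1 (0.0513, 0.123 and 0.163).

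At 100 ng, 4 of the 5 genes rose and 1 fell, on an array where 33.6% of all probe sets were called higher and 35.2% lower. CecB had the largest rise of the 5: it read 10.26 at 100 ng, against 8.33 and 8.81 in controls, and was 3.21-fold higher (log2 change 1.68, SE 0.26, adjusted p = 2.73e-04). Mtk read 13.04, against 11.89 and 11.95 in controls, and was 2.17-fold higher (log2 change 1.12, SE 0.15, adjusted p = 1.20e-04). Drs read 12.61, against 11.75 and 11.50 in controls, and was 1.97-fold higher (log2 change 0.98, SE 0.20, adjusted p = 0.00171). AttD read 12.65, against 11.87 and 11.77 in controls, and was 1.77-fold higher (log2 change 0.83, SE 0.17, adjusted p = 0.00162). For each of these 4 genes the 100 ng array was the highest of the 6.

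DptB went the other way. It read 11.98 at 100 ng, against 13.11 and 13.02 in controls, and was 2.12-fold lower (log2 change -1.08, SE 0.17, adjusted p = 3.35e-04), its lowest reading of the 6. The 5 calls passed in the same direction under the 14 alternatives run, but each of these keeps the single 100 ng array, so they do not test the reading on which the calls rest. The median change was 0.98 for the 5 genes and 0.04 for all probe sets. Since most probe sets were called on this array, the number of genes called says little by itself.

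**Figure D2:**
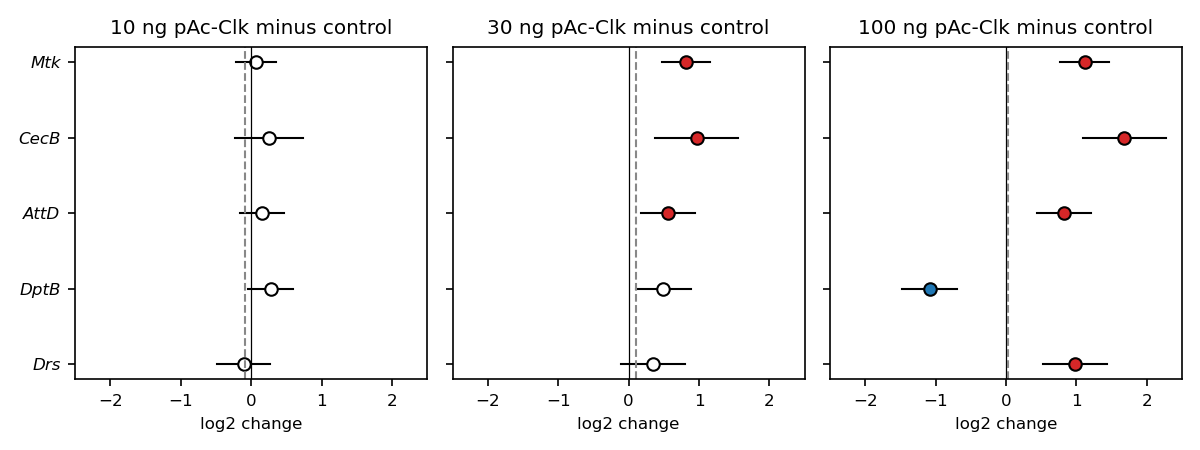
Log2 change of each gene against the control transfection at 3 amounts of pAc-Clk, with 95% intervals from limma. Filled points passed the test (red higher, blue lower), open points did not, and the dashed line is the median change of all tested probe sets; the 10 ng changes lie between -0.11 and 0.28, while DptB alone is below 0 at 100 ng.

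Whether the larger doses differed from 10 ng was tested directly, without control arrays in the contrast. Between 100 and 10 ng all 5 genes differed, and again 4 were higher and DptB lower, where 36.2% of all probe sets were called higher and 34% lower. CecB was 1.43 higher at 100 ng than at 10 ng (SE 0.26, adjusted p = 7.47e-04), Drs 1.09 (SE 0.20, adjusted p = 8.59e-04), Mtk 1.05 (SE 0.15, adjusted p = 1.67e-04) and AttD 0.67 (SE 0.17, adjusted p = 0.00523). DptB differed by -1.36 (SE 0.17, adjusted p = 7.25e-05), which is 2.57-fold lower at 100 ng. Between 30 and 10 ng 1 of the 5 genes passed, Mtk, with a difference of 0.75 (SE 0.15, adjusted p = 0.0100), where 13.4% of all probe sets were called higher and 10.8% lower. It missed the threshold with no filter (adjusted p = 0.0594). The other 4 differences were 0.71 for CecB, 0.45 for Drs, 0.41 for AttD and 0.22 for DptB. Adjusted p-values of these 4 ranged from 0.0720 to 0.371.

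The mean of the 3 doses against control gave rises of 0.97 for CecB (SE 0.19, adjusted p = 0.00253), 0.67 for Mtk (SE 0.11, adjusted p = 9.91e-04), 0.51 for AttD (SE 0.12, adjusted p = 0.00708) and 0.41 for Drs (SE 0.15, adjusted p = 0.0433). DptB differed by -0.11 (SE 0.13, adjusted p = 0.519), a mean of values above controls at 10 and 30 ng and a value below them at 100 ng. Of all probe sets 21.5% were called higher and 27.4% lower in this contrast, and higher calls were 44% of all calls as deposited, 57.2% after quantile normalization and 54% after median centring. All 4 rises rested on the 100 ng array. Without it the contrast becomes the mean of 10 and 30 ng against control. The changes were then 0.61 for CecB, 0.44 for Mtk, 0.36 for AttD and 0.12 for Drs. Their adjusted p-values (limma) ran from 0.0509 (Mtk) to 0.759 (Drs). Without control replicate 2, AttD (adjusted p = 0.103) and Drs (0.347) did not pass. Drs also missed the threshold without control replicate 1 (0.0592), with no filter (0.159), at face value (0.133) and with no intensity trend (0.0917). None of the 5 genes had all 4 Clk arrays beyond both controls in 1 direction, a pattern shown by 1.99% of probe sets upward and 8% downward.

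How alike the 5 genes were was measured by centring each on its own mean and taking the root mean square distance between profiles over the 6 arrays, in log2 units. Mtk, AttD and Drs lay closest together, with distances of 0.17 (Mtk and AttD), 0.17 (AttD and Drs) and 0.20 (Mtk and Drs). CecB moved over a wider range and was 0.27 from Mtk and 0.42 from Drs. DptB was the most distant from each of the others, at 0.73 from AttD to 1.05 from CecB. The points share arrays, so these distances describe the 6 arrays and carry no test. The 5 genes outside the immune and marker lists nearest to the members' mean profile were UK114, icln, GPHR, Slc25A46a and CG2617, at distances of 0.05 to 0.06. Their 100 ng changes were 0.57 to 0.76 and their 10 ng changes 0.02 to 0.10. That mean takes in DptB, and the members themselves lay further from it. Their distances were 0.08 (AttD), 0.17 (Mtk), 0.23 (Drs), 0.40 (CecB) and 0.69 (DptB).

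Of 25 other antimicrobial and immune peptide genes, 12 had a named probe set and 3 passed the signal filter. The other 9, among them Def, Drsl1 and BomS2, read between 2.35 and 4.96 and were not tested. Anp, the andropin gene beside the cecropin genes, read 7.57 and 7.46 in controls, 7.36 and 7.22 with 10 ng, 8.32 with 30 ng and 9.93 with 100 ng. It rose by 0.80 at 30 ng (SE 0.23, adjusted p = 0.0436) and by 2.41 at 100 ng (SE 0.23, adjusted p = 1.19e-05). Drsl4, a drosomycin-like gene, rose at 100 ng by 0.81 (SE 0.26, adjusted p = 0.0194).

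The third, edin, an infection-induced gene for a short secreted peptide, read 11.48 and 11.21 in controls, 11.88 and 11.71 with 10 ng, 11.91 with 30 ng and 10.14 with 100 ng. Its 100 ng change was -1.20 (SE 0.18, adjusted p = 1.92e-04), so it fell there as DptB did, and its readings at 10 and 30 ng lay above both controls as those of DptB did. The distance between the profiles of edin and DptB was 0.13, the 8th smallest among 6609 genes ranked by distance to DptB, a ranking made after both profiles had been seen.

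**Figure D3:**
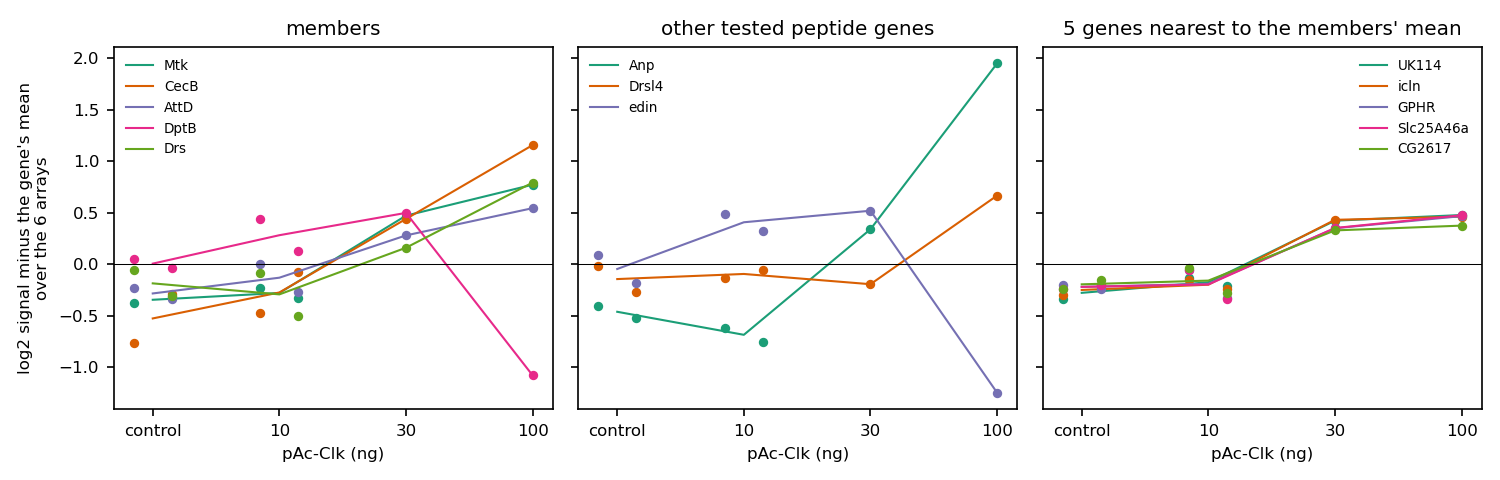
Log2 signal minus the gene's own mean over the 6 arrays, by amount of pAc-Clk, for the 5 members (left), the 3 other tested peptide genes (middle) and the 5 genes nearest to the members' mean profile (right). Points are single arrays and lines join group means; DptB and edin drop on the 100 ng array, while Anp climbs furthest, by 2.41 against control.

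Among genes near the members in RefSeq gene order (assembly Release 6 plus ISO1 MT), the nearest with a tested probe set among them, changes at 100 ng went both ways. Near Mtk, SRPK rose by 1.05 (adjusted p = 0.00101) and CG8180 by 1.04 (adjusted p = 0.00432), each 3 genes away, while Stacl, 2 genes away, differed by 0.11 (adjusted p = 0.697). On 1 side of DptB, CG43109 read 8.53 at 100 ng, against 4.50 and 4.67 in controls, a rise of 3.95 (adjusted p = 7.86e-07). On the other side Jheh2, a juvenile hormone epoxide hydrolase gene, fell by 2.08 (adjusted p = 2.49e-06). Beside Drs, kst differed by 0.49 (limma, adjusted p = 0.0796), Ythdc1 fell by 1.09 (adjusted p = 0.00188) and Drsl6 stayed between 2.53 and 2.86. CG12010, 2 genes from Drs, differed by -0.22 (limma, adjusted p = 0.422). Near AttD, CG14322, 12 genes away, differed by -0.18 (limma, adjusted p = 0.559). RpS7, a ribosomal protein gene 13 genes from CecB and beyond Anp, read 9.83 at 100 ng, against 14.99 and 14.98 in controls. These neighbours were looked up after the members' values were seen.

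The pathways that drive these genes were described from lists. At 10 ng, 0 of 12 Imd pathway genes, 0 of 11 Toll pathway genes and 0 of 9 inhibitors of these pathways passed the test in either direction. The same tests (limma) had an unadjusted p under 0.05 for 1 Imd, 0 Toll and 0 inhibitor genes, and for 2.06% of all probe sets. After adjustment 0.0947% of all probe sets were called higher and 0% lower. Their median changes were -0.09, -0.09 and -0.04, against -0.09 for all probe sets. At 30 ng the numbers higher and lower were 0 and 1 for Imd, 1 and 1 for Toll, and 0 and 1 for the inhibitors, beside 5.73% and 11.6% of all probe sets. These counts moved with the scaling. After either quantile normalization or median centring they were 1 and 1 for Imd and 2 and 1 for the inhibitors. For Toll they were 3 and 1 after quantile normalization and 4 and 1 after median centring. The calls over all 8446 probe sets moved too, from 484 higher and 981 lower as deposited. They became 1109 and 1078 after quantile normalization, and 1051 and 1172 after median centring.

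At 100 ng, 4 of 12 Imd genes rose and 3 fell, with a median of 0.40. PGRP-LE, a peptidoglycan receptor, rose by 1.65 (SE 0.26, adjusted p = 2.83e-04), and IKKbeta, a kinase that signals to Rel, rose by 1.08 (SE 0.20, adjusted p = 9.78e-04). PGRP-LA, of the same receptor family, read 4.61 at 100 ng, against 9.44 and 9.47 in controls (log2 change -4.84, SE 0.22, adjusted p = 7.42e-08). key, the regulatory partner of IKKbeta, fell by 0.87 (SE 0.17, adjusted p = 0.00130). Rel itself, named after its value was seen, read 11.21 at 100 ng, against 12.25 and 12.10 in controls (log2 change -0.97, SE 0.18, adjusted p = 9.36e-04). At 10 and 30 ng Rel differed by -0.01 and 0.10.

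Of the 11 Toll genes at 100 ng, 7 rose and 3 fell, with a median of 0.76. The 7 include cact, which was listed here although its product holds back Dif and dl. Named after its value was seen, cact rose by 0.81 (SE 0.17, limma, adjusted p = 0.00169). Dif, the NF-kappaB factor of Toll signalling in immunity, rose by 2.12 (SE 0.25, adjusted p = 5.10e-05). Pli, which encodes the Pellino ubiquitin ligase, rose by 1.98 (SE 0.21, adjusted p = 2.00e-05). grass, a serine protease upstream of the Toll receptor, fell by 2.83 (SE 0.20, adjusted p = 1.50e-06), and it had already fallen by 2.63 at 30 ng (SE 0.20, adjusted p = 2.87e-05). Deaf1, whose product binds the Mtk promoter region, read 3.74 at 100 ng, against 7.24 and 8.21 in controls. Its log2 change was -3.99 (SE 0.47, limma, adjusted p = 4.45e-05). That reading lay close to the highest Tag signal of the array, 3.56, which limits how well the size of the fall is known.

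The 9 genes listed as inhibitors, which leave out cact, split as 3 higher and 5 lower at 100 ng, with a median of -0.64. pirk, which restrains Imd signalling and is itself a Rel target, rose by 1.30 (SE 0.22, adjusted p = 4.34e-04), and PGRP-LF, a receptor decoy, rose by 1.13 (SE 0.18, adjusted p = 3.55e-04). PGRP-LB, an amidase that destroys peptidoglycan, fell by 1.74 (SE 0.26, adjusted p = 2.07e-04), and the deubiquitinase gene scny fell by 2.90 (SE 0.18, adjusted p = 4.67e-07). Of 4 JAK-STAT and stress genes tested, 2 rose and 1 fell at 100 ng; vir-1, a virus-induced gene, rose by 0.80 (SE 0.15, adjusted p = 0.00280). The 3 GATA factor genes tested (srp, pnr and GATAd) had 0 calls against control at any dose. Unadjusted p-values under 0.05 numbered 1 at 10 ng (srp, with a change of -0.36), 0 at 30 ng and 0 at 100 ng (limma). Among all probe sets the shares at that threshold were 2.06% at 10 ng, 34.9% at 30 ng and 71.2% at 100 ng. Directly compared, srp was higher at 100 ng than at 10 ng by 0.64 (adjusted p = 0.00814). With quantile normalization or median centring the numbers higher and lower at 100 ng became 7 and 3 for Imd and 3 and 1 for JAK-STAT and stress. For GATA factors they became 1 and 0. The inhibitors had 3 and 4 after quantile normalization, where PGRP-SC2 went from -1.04 to -0.33, and 3 and 5 after median centring. Beside each of the counts as deposited stand the 33.6% and 35.2% of all probe sets called higher and lower at 100 ng. Beside the rescaled counts, 3531 of 8446 probe sets were called higher and 2780 lower after quantile normalization. After median centring these numbers were 3332 and 2815.

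**Figure D4:**
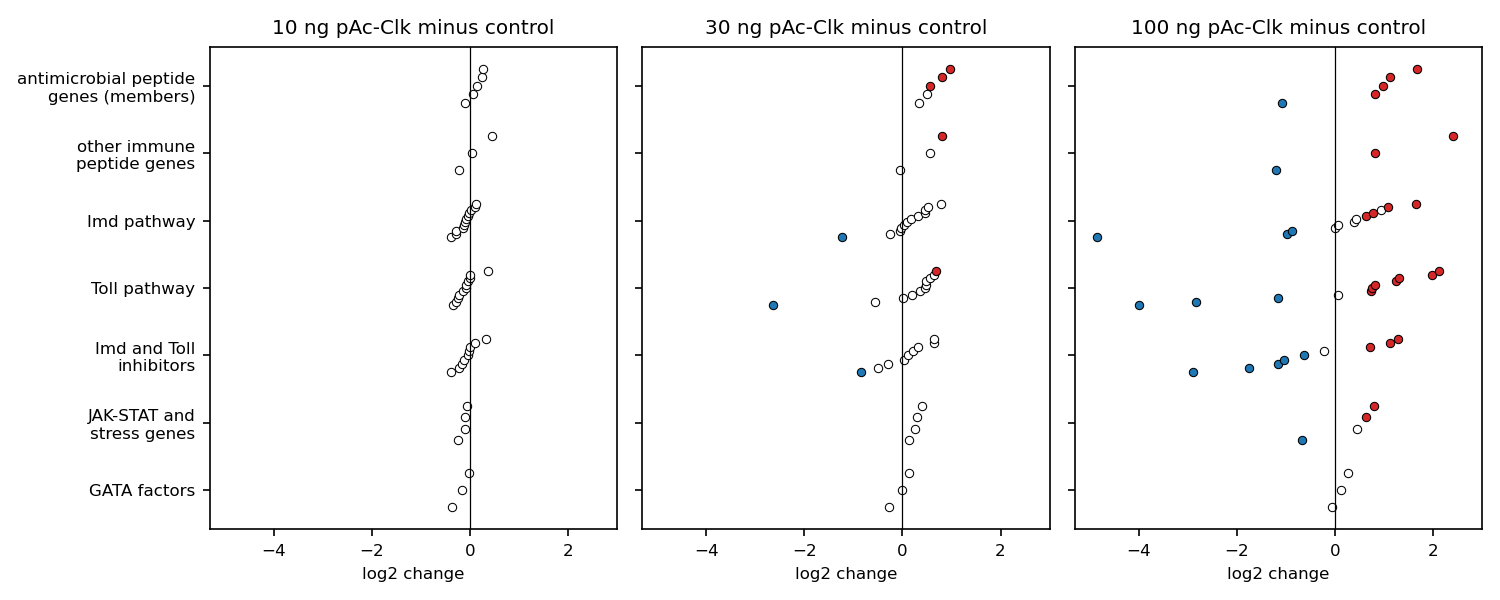
Log2 change against control of each tested gene in 7 lists at 3 amounts of pAc-Clk; points are spread vertically only to be seen. Filled points passed the test (red higher, blue lower): there are 0 at 10 ng, and at 100 ng the lists hold calls in both directions, except the GATA factors, which hold 0.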

How the data were processed

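The deposited values were intensities, 1 column per array, and GCRMA is named without a version or settings in the submitters' processing notes. Of 113712 values, 8701 exceeded the range of a 16-bit scanner at face value. The natural log of each value, which ran from 1.69 to 15.85, was therefore read as log2 signal. Symbols came from GEO's platform annotation, updated by Entrez ID for 13544 of 18769 probe sets. Of these, 13647 had 1 symbol, 402 several and 4720 none.

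Probe sets reaching 4 on at least 2 of 6 arrays were tested with limma 3.58.1 (R 4.3.3; intensity trend, Benjamini-Hochberg, threshold 0.05), with 2 residual and 7.60 prior degrees of freedom. Where a dose had 1 array, its spread was taken to be that of the groups with replicates. Figures used matplotlib 3.10.9.

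The genes described and the lists were chosen with earlier results of these data known. From each list, up to 4 genes with the smallest p for the mean of the doses were named, beside the members and the 5 genes nearest to their mean profile. The promoter motif search that had been planned was not run, because no sequence table was used here. Alternatives covered the filter, scaling, scale of the values, moderation, replicate block and each array left out.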

Additional observations from a re-analysis of the deposited data

Results flagged for a closer look

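In 6 cases the change at a larger dose differed from that at 10 ng by a test of the difference itself (limma, Benjamini-Hochberg over all tested probe sets). At 30 ng against 10 ng this was Mtk, with 0.75 on the log2 scale (adjusted p = 0.0100). At 100 ng against 10 ng the differences were 1.43 for CecB (adjusted p = 7.47e-04), 1.09 for Drs (8.59e-04), 1.05 for Mtk (1.67e-04), 0.67 for AttD (0.00523) and -1.36 for DptB (7.25e-05). Each larger dose is 1 array, and both arrays had the low 5′ signal, with a mean 5′ minus 3′ difference of -9.40 at 30 ng and -8.25 at 100 ng. The part of the low 5′ signal in these differences was not tested.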

How the results depend on the processing

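The calls of all 5 genes at 100 ng, against control and against 10 ng, kept their direction and their side of the threshold under the 14 alternatives run for each, all of which keep the single 100 ng array and so do not test it, and 0 of 5 were called at 10 ng under any of 16. The 30 ng calls did not hold as well. Of the 5 genes, 3 were called at 30 ng as reported, 0 with no filter, 1 at face value and 1 with no intensity trend, and between 0 and 3 with each array left out. DptB, not called as reported, passed at 30 ng under 5 alternatives. Against 10 ng the 30 ng array gave 1 call, 0 with no filter, 3 with a filter at 6, 3 with robust moderation, and between 1 and 3 with each array left out. For the mean of the doses the 4 calls became 0 without the 100 ng array, 2 without control replicate 2 and at most 5. The cause of these changes was not tested.

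Over all probe sets, the count at 10 ng was 8 as reported, 0 with no filter (549 at an unadjusted p under 0.05), 0 at face value (363), 15 with robust moderation, and between 3 and 25 with each array left out. At 30 ng it was 1465, against 687 with no filter, 2223 with median centring, 671 at face value, 2328 with robust moderation, and 1147 to 1511 with each array left out. At 100 ng it was 5816 of 8446, and 10403 of 18769 with no filter. In this paragraph every count with no filter is out of 18769 probe sets and every count at face value out of 13065. The other counts are out of 8446. For the mean of the doses it was 4131, and 587 (without the 100 ng array) to 4379 with each array left out. Between 30 and 10 ng it was 2046, 655 with no filter, 669 at face value and 761 to 2130 with each array left out, and between 100 and 10 ng 5927, and 10729 with no filter.

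The 10 ng change of Drs (-0.11) became 0.0022 with quantile normalization, 0.02 without control replicate 1 and 0.10 without 10 ng replicate 2, and ranged from -0.32 to 0.10 with each array left out. The mean of the doses for DptB (-0.11) became 0.0078 with quantile normalization and 0.38 without the 100 ng array, and ranged from -0.40 to 0.38 with each array left out. Of these values 1 passed the test, the -0.40 without the 30 ng array (limma, adjusted p = 0.0285). Without the 30 ng array the mean is over 10 and 100 ng, and without the 100 ng array over 10 and 30 ng. With both single-array doses left out, the calls of the 5 genes at 10 ng stayed at 0.

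With the replicate number as a block, 23 probe sets were called at 10 ng. Between 30 and 10 ng, 2 of the 5 genes were called, beside 2086 of all 8446 probe sets. AttD missed the threshold at 30 ng with this block (limma, adjusted p = 0.0570). The replicate differences of the 10 ng and control groups correlated at r = 0.334 over 8446 probe sets. The labels do not say whether arrays of the same number shared a batch, so the number was not used as a block in the reported values. The number of arrays and the inferred scale limit every value here.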
